A study of Mus musculus with 47 samples.

Results

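The CXC chemokine genes of mouse chromosome 5 were followed through intestinal mucosa, intestinal adenomas and intestinal organoids of mice that differ in how much of the PWD/Ph genome they carry. The members were taken by gene symbol from the table of read counts per gene: Cxcl1, Cxcl2, Cxcl3, Cxcl5, Cxcl9, Cxcl10, Cxcl11, Cxcl13, Pf4 and Ppbp, 10 of 24062 genes. All 10 symbols were found. In tissue 9 members had enough reads to enter the test, all but Cxcl3, and in organoids 2 members did, Cxcl10 and Cxcl11.

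The tissue samples were adenoma and uninvolved mucosa of mice with the Apc Min allele, which induces intestinal adenomas, and mucosa of wild-type mice, all aged 15 to 19 weeks. Mucosa of Apc Min mice is called Min mucosa. Adenoma, Min mucosa and wild-type mucosa were each sampled in 4 backgrounds: C5, a consomic strain with chromosome 5 of PWD/Ph and all other chromosomes from C57BL/6; C5F1, the F1 of C57BL/6 and that strain, with 1 PWD copy of chromosome 5; B6xPWD, the F1 of C57BL/6 and PWD; and B6, C57BL/6 itself. PWD/Ph, a strain derived from wild Mus musculus musculus, was sampled as wild-type mucosa only. There were 3 libraries in each of the 13 tissue groups. The 8 organoid libraries, 2 in each of 4 groups, were C5 and B6 cultures of the Apc Min genotype, treated with 5-aza-cytidine (AZA), a nucleoside that inhibits DNA methylation, or kept as controls. The same age of 15 to 19 weeks is given for the organoid libraries. The sex of the mice and the part of the intestine were not given, and nothing says whether libraries of 1 group are different animals or cultures. The p-values therefore speak of the spread among these libraries, which may be technical.

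Reads assigned to genes numbered 2726505 to 20070696 per tissue library and 4389898 to 8373764 per organoid library. The ribosomal precursor Rn45s took 16.4 to 72.7% of them in tissue and 0.760 to 1.61% in organoids. Levels are in CPM, counts scaled to a common total of assigned reads, after TMM scaling, a correction for differences in composition between libraries. A gene was called where the p-value of edgeR's quasi-likelihood test, adjusted by Benjamini-Hochberg across the genes of the fit, was under 0.05. Fitted log2 changes carry a prior count of 2, which makes the change of a gene with few reads smaller than the ratio of its pooled counts. The value after ± of a fitted log2 change is that change divided by the square root of the test's F statistic. It shrinks with the change, so it is an approximate error that can be too small for a gene with few reads. All 8 epithelial markers were present in every system, with summed levels of 4611 to 8688 CPM in tissue, 6696 to 7393 CPM in AZA organoids and 5611 to 5852 CPM in control organoids. Tissue samples also held stroma and blood cells, so in tissue a lower level from fewer cells of a type cannot be told apart from less RNA per cell.

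A pair of libraries stood apart from their groups. In adenoma of B6xPWD, replicate 1 had a summed level of 10 B cell markers (Ms4a1, Cd79a and others) of 440 CPM, against 4.63 and 6.05 CPM in the other libraries of that group. In wild-type mucosa of B6, replicate 1 had 152 CPM of the same markers, against 10.8 and 16.6 CPM. Where leaving out either library changed the call of a member, both values are given.

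Chemokines are small secreted proteins that guide white blood cells along a gradient to a tissue. Cxcl1, Cxcl2, Cxcl3, Cxcl5 and Ppbp carry the amino acids glutamate, leucine and arginine (ELR) before the paired cysteines and bind Cxcr2, the receptor through which neutrophils are drawn out of the blood. They are switched on in epithelium and stroma by tumour necrosis factor, interleukin 1 and interleukin 17 through NF-kappaB. Cxcl9, Cxcl10 and Cxcl11 are induced by interferon gamma and bind Cxcr3 on T cells and natural killer cells, Cxcl13 draws B cells into lymphoid follicles through Cxcr5, and Pf4 and Ppbp are stored in platelet granules.

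On GRCm38 (mm10) the genes form 3 blocks of chromosome 5. Cxcl5 (chr5:90759360-90761624), Ppbp (chr5:90768518-90770063), Pf4 (chr5:90772435-90773383), Cxcl3 (chr5:90786103-90789600), Cxcl1 (chr5:90891241-90893115) and Cxcl2 (chr5:90903871-90905938) lie on the plus strand in the first block. Cxcl9 (chr5:92321347-92328079), Cxcl10 (chr5:92346638-92348889) and Cxcl11 (chr5:92359544-92365485) lie on the minus strand in the second. Cxcl13 (chr5:95956951-95961068) lies alone on the plus strand. Cxcl11 is annotated on the C57BL/6 reference as a polymorphic pseudogene. It lies inside Art3, a gene on the opposite strand, and 41.7% of its exon bases overlap Gm2673, also on the opposite strand. Cxcl10 shares 5.91% of its exon bases with Art3. The strand setting of the read counting was not given in the sources used here, so reads of Cxcl10 and Cxcl11 cannot be told apart from reads of the genes that overlap them.

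Promoter sequences from RefSeq (GRCm38.p6) were matched for 8 of the 10 members, all but Cxcl5 and Cxcl11. The sequences of 4 members are printed because those members were higher in adenoma or after AZA and hold letters of the NF-kappaB site. Capitals mark matches to GGNNNTTCC, a loose form of that site, on either strand. In Cxcl10 the first run of capitals is instead a match to GAAANNGAA, a loose form of the element that interferon regulatory factors recognise.
Cxcl1, chr5:90891125-90891214, plus strand: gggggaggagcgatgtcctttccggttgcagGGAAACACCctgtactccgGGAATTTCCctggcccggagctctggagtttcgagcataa
Cxcl2, chr5:90903779-90903868, plus strand: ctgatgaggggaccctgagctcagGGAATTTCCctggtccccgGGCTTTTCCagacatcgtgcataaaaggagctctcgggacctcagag
Cxcl3, chr5:90785981-90786070, plus strand: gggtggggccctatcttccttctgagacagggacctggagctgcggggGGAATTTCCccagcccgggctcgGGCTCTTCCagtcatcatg
Cxcl10, chr5:92348970-92349119, minus strand: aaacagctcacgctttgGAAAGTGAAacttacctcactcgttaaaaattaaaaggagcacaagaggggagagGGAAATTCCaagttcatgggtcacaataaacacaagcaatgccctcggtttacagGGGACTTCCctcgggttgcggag

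The longest run of letters shared by the 250 bases before the start of Cxcl1, Cxcl2 and Cxcl3 was GGGAATTTCCC, 11 letters that include a match to GGNNNTTCC on both strands and end 61, 87 and 63 bases before the start. Of 32851 RefSeq promoters, 14 (0.0426%) held this run over the same length, those of Cxcl1, Cxcl2 and Cxcl3 among them. The run was taken from these promoters, so its presence there was fixed beforehand and its rarity elsewhere is no test. The looser GGNNNTTCC was found in 15.7% of promoters and GAAANNGAA in 7.13%. Cxcl10 held GGNNNTTCC at 2 places and GAAANNGAA at 1, and Cxcl9, which is not printed, also held them at 2 places and at 1. In the promoters of Cxcl13, Pf4 and Ppbp neither form was found in this window. These matches describe letters and do not show that a factor binds.

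The members were scarce transcripts. Over all 47 libraries the reads per member ranged from 65 for Cxcl3 to 1565 for Cxcl9. Cxcl3 was counted in 12 libraries, Ppbp in 20, Cxcl2 in 23 and Cxcl1 in 28, while Cxcl9 was counted in 44. Per kilobase of transcript, the mean level in wild-type mucosa of the 4 backgrounds was highest for Cxcl13 at 4.16 CPM per kb, followed by Cxcl9 at 2.85, Pf4 at 1.78 and Cxcl10 at 1.37 CPM per kb. In adenoma the order was Cxcl13 at 7.02 CPM per kb, which rests on 1 library, Cxcl5 at 4.42, Cxcl1 at 2.12 and Pf4 at 1.82 CPM per kb. The ELR ligands other than Cxcl5 were at or below 0.112 CPM per kb in wild-type mucosa.

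Adenoma was set against Min mucosa to see which chemokines mark the tumour tissue. As the mean of 4 backgrounds, Cxcl1, Cxcl2, Cxcl5 and Ppbp, all ligands of Cxcr2, rose in adenoma, and Cxcl9, a ligand of Cxcr3, fell. Cxcl10, Cxcl11, Cxcl13 and Pf4 did not pass the test, and for Cxcl13 this rests on the B6xPWD adenoma that stood apart: the log2 change was 0.01 (adjusted p = 0.98) with it and -1.06 ± 0.26 (adjusted p = 0.0011) without it. The 5 called members of 9 tested stand against 45.2% of all genes called in this comparison, 23.7% higher and 21.5% lower, so their number is close to that of genes at large. The median log2 change was 0.01 over the tested members and 0.01 over all genes.

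Cxcl1, a strong neutrophil attractant of the mouse, had a lowest, median and highest level of 0.165, 1.34 and 5.76 CPM in 12 adenomas, against 0, 0.0547 and 0.400 CPM in 12 Min mucosa libraries. The highest Min mucosa library exceeded the lowest adenoma. The log2 change was 2.10 ± 0.29 (adjusted p = 7.8e-07), and the pooled counts of 215 in adenoma and 11 in Min mucosa gave a ratio of 15.7 (exact 95% counting interval 8.62 to 32.0). Cxcl5, an attractant that epithelial cells make, had 0.772, 4.73 and 18.9 CPM in adenoma, against 0, 0.692 and 3.67 CPM in Min mucosa, with a log2 change of 2.64 ± 0.39 (adjusted p = 1.3e-06). Its ratio of pooled counts was 6.21 (4.91 to 7.95). These intervals cover counting error only, since the reads carry no molecular identifiers.

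Ppbp, which in platelets is the precursor of a neutrophil attractant, was scarce in Min mucosa. It had 0, 1.02 and 2.06 CPM in adenoma, with 11 of 12 libraries holding a read, and at most 0.175 CPM in Min mucosa, with 4 of 12. The log2 change was 1.77 ± 0.29 (adjusted p = 3.4e-05) and the ratio of 119 to 4 counts was 24.0 (9.12 to 89.4). Cxcl2 had 0, 0.759 and 3.23 CPM in adenoma, against 0, 0.0874 and 1.005 CPM in Min mucosa, with a log2 change of 1.24 ± 0.29 (adjusted p = 0.0011). Leaving out any 1 of the 24 libraries kept all of these calls, with log2 changes of 1.93 to 2.19 for Cxcl1, 2.19 to 2.90 for Cxcl5, 1.65 to 1.85 for Ppbp and 1.13 to 1.38 for Cxcl2.

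**Figure D1:**
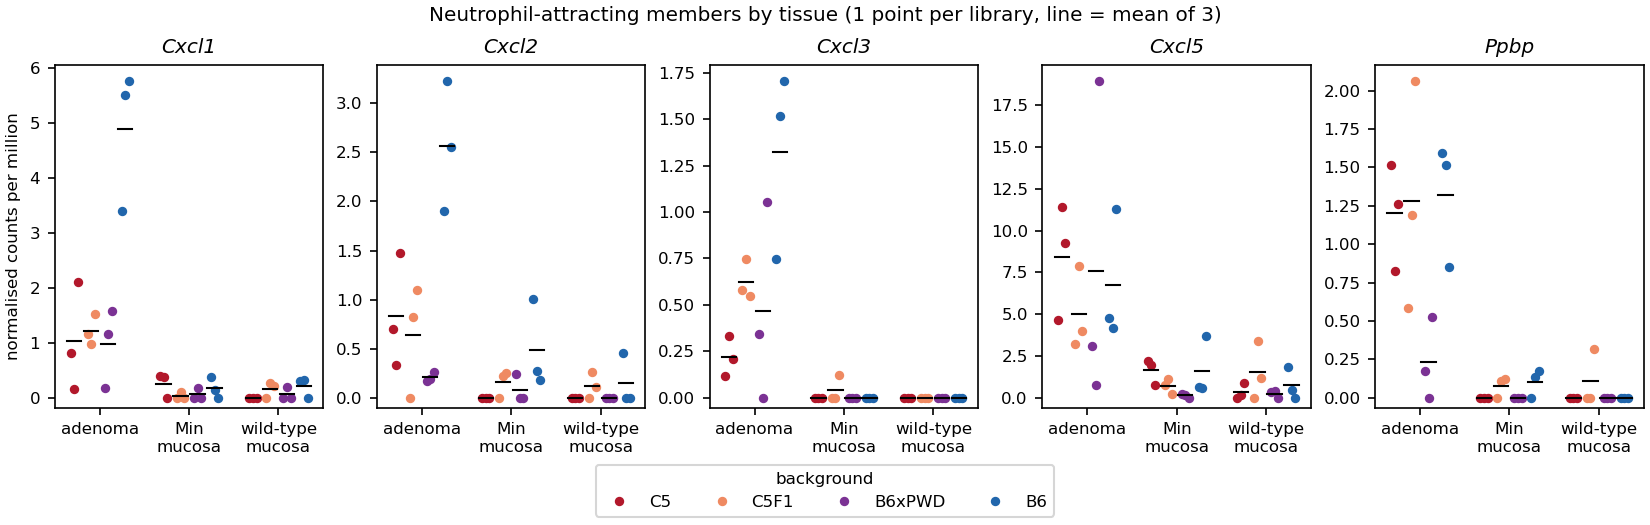
Levels (CPM) of the ligands of Cxcr2 in adenoma, Min mucosa and wild-type mucosa; each point is 1 library, colours give the background (C5, C5F1, B6xPWD, B6) and lines are means of 3 libraries. Adenomas of B6 hold the highest Cxcl1 levels, 3.39 to 5.76 CPM, and mucosa of either genotype stays at or below 0.400 CPM.

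Cxcl3 had too few reads for the test and is described by its counts. It had 64 reads in adenoma, spread over 11 of 12 libraries, and 1 read in Min mucosa, a ratio of 51.6 (8.93 to 2068). No read was found in wild-type mucosa of any background, PWD included, nor in organoids. In adenoma of B6 its levels were 0.747, 1.52 and 1.71 CPM, against 0 in all 3 Min mucosa libraries of B6. With that empty group set to 3 counts it was 6.75-fold higher. Values of this kind leave out the counting error of the group with reads, so they are not strict lower bounds. Without the filter on low counts Cxcl3 was called as the mean of 4 backgrounds (log2 change 1.43 ± 0.24, adjusted p = 4.3e-05) and in B6 (2.33 ± 0.49, adjusted p = 0.0015).

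The ELR ligands were then taken background by background. In C5, 2 members were called, against 2.77% of all genes. Ppbp had 1.52, 0.825 and 1.26 CPM in adenoma and no read in Min mucosa (log2 change 2.30 ± 0.48, adjusted p = 0.0067), 8.72-fold higher with the empty group set to 3 counts. Cxcl2 had 0.700, 0.330 and 1.47 CPM in adenoma and no read in Min mucosa (1.84 ± 0.47, adjusted p = 0.027), 5.45-fold higher by the same setting. The Cxcl2 call was lost without any 1 of 5 of these 6 libraries (all but adenoma replicate 2), with adjusted p up to 0.131. Cxcl1 had 0.816, 0.165 and 2.11 CPM in adenoma of C5, against 0.400, 0.366 and 0 CPM in Min mucosa, and these groups overlapped (1.22, adjusted p = 0.33). Cxcl5 had 4.66, 11.4 and 9.27 CPM, against 2.20, 1.95 and 0.756 CPM, without overlap (2.18, adjusted p = 0.12). Cxcl5 was called with the replicate number as a block within background, a model added after the data were seen (2.21, adjusted p = 0.0038), and in a fit of these groups alone (2.19, adjusted p = 0.029).

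In C5F1, 4 members were called, against 20.5% of all genes. Cxcl1 had 1.16, 0.968 and 1.51 CPM in adenoma, against 0, 0.109 and 0 CPM in Min mucosa (log2 change 2.07 ± 0.55, adjusted p = 0.0076). Cxcl5 had 3.20, 7.89 and 3.99 CPM, against 0.759, 1.09 and 0.246 CPM (2.47 ± 0.80, adjusted p = 0.026). Both were higher in every adenoma than in any Min mucosa library, as was Ppbp, with 0.581, 1.19 and 2.06 CPM against 0, 0.109 and 0.123 CPM (2.00 ± 0.54, adjusted p = 0.010). The Cxcl1 call was lost without Min mucosa replicate 3 (1.89, adjusted p = 0.0736). The Cxcl5 call was lost without adenoma replicate 2 or Min mucosa replicate 2 or 3, with adjusted p up to 0.165, and the Ppbp call without adenoma replicate 3 or Min mucosa replicate 2 or 3, with adjusted p up to 0.0663.

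In B6xPWD, 3 members were called, against 16.4% of all genes: Cxcl1, Cxcl5 and Cxcl13. Cxcl5 had 3.08, 0.772 and 18.9 CPM in adenoma, against 0.245, 0.178 and 0 CPM in Min mucosa (log2 change 4.02 ± 0.86, adjusted p = 0.0014), a ratio of pooled counts of 38.1 (12.7 to 188). Without adenoma replicate 3, which alone held 18.9 CPM, the change was 2.26 (adjusted p = 0.061). Cxcl1 had 0.171, 1.16 and 1.58 CPM in adenoma, against 0, 0.178 and 0 CPM (1.74 ± 0.56, adjusted p = 0.030). Its groups touched at the lowest adenoma, the library that stood apart, and without that library the change was 2.19 (adjusted p = 0.0091). Its call was lost without adenoma replicate 2 or 3 or Min mucosa replicate 1 or 3, with adjusted p up to 0.13. Cxcl2 was barely counted in B6xPWD, with 1 read in each adenoma (0.32, adjusted p = 0.74).

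In B6, Cxcl1 had 3.39, 5.51 and 5.76 CPM in adenoma, against 0.377, 0.137 and 0 CPM in Min mucosa, and the groups were far apart. Its log2 change was 3.36 ± 0.56 (adjusted p = 4.4e-05). Of the 9 tested members, 5 were called in B6, where 26.7% of all genes were called: Cxcl1, Cxcl2, Cxcl5 and Ppbp higher and Cxcl9 lower. Cxcl2 had 1.90, 3.23 and 2.56 CPM in adenoma of B6, against 1.005, 0.274 and 0.175 CPM in Min mucosa (log2 change 1.78 ± 0.52, adjusted p = 0.013). Ppbp had 1.60, 1.52 and 0.853 CPM, against 0, 0.137 and 0.175 CPM (2.05 ± 0.50, adjusted p = 0.0039). These groups did not overlap. Cxcl5 had 4.79, 4.18 and 11.3 CPM in adenoma of B6, against 0.628, 0.547 and 3.67 CPM (1.91 ± 0.72, adjusted p = 0.048). The Cxcl5 call was lost without adenoma replicate 1, 2 or 3 or Min mucosa replicate 1 or 2, with a lowest change of 1.40 (adjusted p = 0.191) without adenoma replicate 3, and the Cxcl2 call without adenoma replicate 2 or Min mucosa replicate 2 or 3, with adjusted p up to 0.0725.

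Whether the adenoma effect itself differed from that of B6 was tested as an interaction. No member passed in C5, where 0.11% of all genes did, nor in C5F1, where 0% did. By edgeR no member had an unadjusted p under 0.05 in either interaction, and DESeq2 called none. For Cxcl1 the effect in C5 minus that in B6 was -2.14 ± 1.07 (adjusted p = 0.55), and the effect in C5F1 minus that in B6 was -1.30 ± 14.2. With errors of this size, the lack of a call does not show that the adenoma effect was alike. The interaction of B6xPWD called Cxcl9 and Cxcl13, described with those genes below.

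Cxcl9, an attractant of activated T cells, moved against the ELR ligands. It had 1.16, 2.67 and 12.1 CPM as lowest, median and highest level in adenoma and 1.64, 7.94 and 17.5 CPM in Min mucosa, with a log2 change of -1.01 ± 0.24 (adjusted p = 0.00069). In C5 the adenomas had 2.68, 5.61 and 3.16 CPM, against 9.01, 10.5 and 6.81 CPM in Min mucosa, and this change did not pass the test (-1.15, adjusted p = 0.25). In C5F1 they had 1.16, 1.56 and 1.93 CPM, against 9.11, 8.64 and 6.77 CPM in Min mucosa (-2.12 ± 0.50, adjusted p = 0.0023). The groups did not overlap in either background.

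In B6xPWD the adenomas had 6.85, 2.12 and 12.1 CPM of Cxcl9, against 3.56, 3.92 and 1.64 CPM in Min mucosa (1.07, adjusted p = 0.13). These groups overlapped, and without adenoma replicate 2 the change was called (1.49, adjusted p = 0.027). In B6 they had 2.24, 2.66 and 4.48 CPM, against 9.80, 7.25 and 17.5 CPM in Min mucosa, without overlap (-1.85 ± 0.46, adjusted p = 0.0030). The adenoma effect on Cxcl9 in B6xPWD minus that in B6 was 2.91 ± 0.66 (adjusted p = 0.034), in a comparison that called 2 of 9 members and 0.63% of all genes. The difference kept its size without B6xPWD adenoma replicate 1, at 2.90, with an adjusted p of 0.0864. It lay between 2.32 and 3.34 without any 1 of the 12 libraries, and 8 of these 12 fits gave no call, with adjusted p up to 0.162. Cxcr3, the receptor of Cxcl9, Cxcl10 and Cxcl11, also passed in this interaction (3.61, adjusted p = 0.033). Its value without B6xPWD adenoma replicate 1, the library that stood apart by its B cell markers, was not taken.

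Cxcl10 and Cxcl11 did not pass in adenoma as the mean of 4 backgrounds. Cxcl10 had 0, 0.573 and 1.84 CPM in adenoma, against 0, 0.931 and 2.01 CPM in Min mucosa (log2 change -0.24, adjusted p = 0.63). Cxcl11 had 0.170, 1.40 and 4.31 CPM in adenoma, against 0, 2.07 and 7.41 CPM in Min mucosa (-0.32, adjusted p = 0.24). Pf4, the platelet chemokine with no strong pull on neutrophils, had 0.193, 1.22 and 2.66 CPM in adenoma, against 0, 0.983 and 3.64 CPM in Min mucosa (-0.04, adjusted p = 0.95).

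Other genes of these pathways were counted in the same comparison of adenoma with Min mucosa. Of 8 tested inducers of ELR chemokines and NF-kappaB feedback genes, 5 rose and 2 fell. Ptgs2, the inducible cyclooxygenase, averaged 30.8 ± 14.9 CPM in adenoma, against 3.07 ± 1.02 CPM in Min mucosa (SD, n = 12 each; log2 change 3.14 ± 0.23, adjusted p = 7.7e-13). Il33, an alarm cytokine of epithelium and stroma, averaged 44.7 ± 18.9 CPM in adenoma, against 6.65 ± 3.52 CPM in Min mucosa (2.78 ± 0.22). Il1b, Tnf and Il1a rose by 1.45, 1.34 and 1.26. Nfkbia and Tnfaip3, inhibitors that NF-kappaB itself induces, fell by 0.54 and 0.32.

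Of 5 tested neutrophil markers 4 rose. Ltf, which encodes lactoferrin of neutrophil granules and of epithelium, rose by 3.06, S100a9 by 1.78, S100a8 by 1.31 and Mmp9 by 0.48. The summed level of 10 neutrophil markers was 11.6 to 49.7 CPM in adenoma, with a median of 29.8 CPM, and 6.31 to 25.2 CPM in Min mucosa, with a median of 13.3 CPM. Mpo and Elane, the primary granule enzymes, had no read in any tissue library. The part of neutrophils in the levels of the ELR ligands was not tested.

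Of 11 tested genes of the interferon gamma axis 10 fell in adenoma, the same direction as Cxcl9. Ido1, a tryptophan-degrading enzyme, averaged 10.03 ± 7.48 CPM in adenoma, against 37.5 ± 29.1 CPM in Min mucosa (log2 change -1.78 ± 0.32, adjusted p = 2.9e-05). Of 9 tested T and natural killer cell markers 5 fell, led by Gzma (-1.83), Gzmb (-1.57) and Cd8a (-1.34), with summed levels of 14.3 to 96.2 CPM in adenoma, against 27.8 to 210 CPM in Min mucosa, and all 9 markers present in both. The part of those cells in the level of Cxcl9 was not tested. Of 6 tested receptors, Ccrl2 fell by 0.85, while Cxcr3 (-0.40, adjusted p = 0.23) and the decoy receptors Ackr1, Ackr2, Ackr3 and Ackr4 did not pass. Cxcr2, the receptor of the ELR ligands, had too few reads for the test.

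Genes within 200 kb of the members moved in both directions: of 11 tested, 4 rose and 3 fell in adenoma. Ereg, the epidermal growth factor family ligand next to the first block, averaged 32.1 ± 20.7 CPM in adenoma, against 10.2 ± 4.33 CPM in Min mucosa (log2 change 1.55 ± 0.20, adjusted p = 1.6e-07). Art3, which overlaps Cxcl10 and Cxcl11 on the other strand, averaged 2.43 ± 1.58 CPM in adenoma, against 5.08 ± 2.53 CPM in Min mucosa (-1.03 ± 0.25, adjusted p = 0.0011).

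The change of Cxcl13 in adenoma of B6xPWD rested on the library that stood apart. In adenoma of B6xPWD it had 68.8, 0.772 and 1.32 CPM, against 3.56, 3.21 and 1.40 CPM in Min mucosa of B6xPWD. The high value, 402 reads, belonged to replicate 1. With it the log2 change was 2.96 ± 0.81 (adjusted p = 0.011), and without it the change was -1.25 (adjusted p = 0.19). The call was also lost without Min mucosa replicate 3 (2.72, adjusted p = 0.058). The same held for the difference of the adenoma effect between B6xPWD and B6, 4.73 ± 1.14 (adjusted p = 0.043) with that library and 0.53 (adjusted p = 0.96) without it, and with the replicate number as a block the difference was 4.57 (adjusted p = 0.055).

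In the same contrast of B6xPWD adenoma with Min mucosa, all 7 tested B cell markers and 5 of 6 tested markers of follicular dendritic cells, the stromal cells of lymphoid follicles, were called higher. Cr2 had a log2 change of 5.79 ± 1.29 and Ms4a1, which encodes CD20, of 5.29 ± 1.23. Among lymphoid organiser genes Ccr6, Ccr7, Ltb and Madcam1 were called. This contrast holds B6xPWD adenoma replicate 1, which was set apart by the same B cell markers. These calls therefore add no separate evidence, and the values of these genes without that library were not taken. In wild-type mucosa of B6, Cxcl13 was likewise highest in replicate 1, the library with 152 CPM of B cell markers, at 18.4 CPM against 3.84 and 3.40 CPM. The part of lymphoid tissue in these 2 values was not tested.

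**Figure D2:**
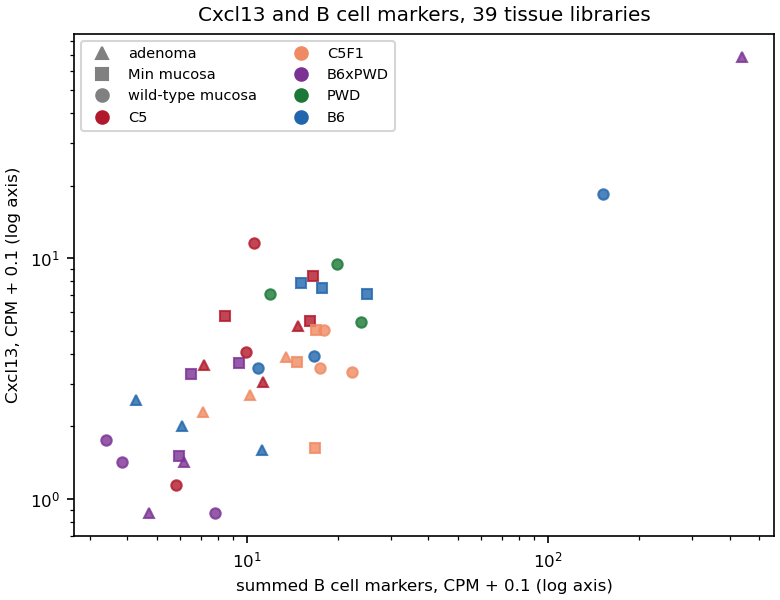
Cxcl13 against the summed level of 10 B cell markers in the 39 tissue libraries, both as CPM + 0.1 on log axes; each point is 1 library. B6xPWD adenoma replicate 1 (440 CPM of markers, 68.8 CPM of Cxcl13) and B6 wild-type mucosa replicate 1 (152 and 18.4 CPM) lie apart from all other libraries.

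Outside those libraries Cxcl13 lay between 0.771 and 11.4 CPM in tissue. In adenoma of B6 it had 1.90, 2.47 and 1.49 CPM, against 7.41, 7.80 and 6.99 CPM in Min mucosa. These groups did not overlap, but the change did not pass the test (-1.77, adjusted p = 0.099). With the replicate number as a block within each background, a model added after the data were seen, the change was -1.80 (adjusted p = 0.024), and in a fit of these groups alone it was -1.84 (adjusted p = 0.00085).

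The backgrounds were compared because the members lie on the chromosome that C5 takes from PWD. Cxcl11 was called higher than in B6 in C5, C5F1 and B6xPWD. In wild-type mucosa of PWD it averaged 2.13 ± 0.554 CPM (SD, n = 3). Over 3 tissues it averaged 3.56 ± 1.72 CPM in C5, 1.82 ± 0.948 CPM in C5F1, 1.61 ± 0.603 CPM in B6xPWD and 0.470 ± 0.519 CPM in B6 (SD, n = 9 each). The level over tissues was lowest in B6, which has no PWD copy of the gene, and highest in C5, which has 2 copies. Over tissues C5F1 and B6xPWD, with 1 copy each, differed by less than their SD. Wild-type mucosa alone had means of 2.59 CPM in C5, 2.40 CPM in C5F1, 1.14 CPM in B6xPWD and 0.875 CPM in B6. There PWD, with 2 copies, lay below C5F1, with 1 copy. The part of the number of copies was not tested.

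As the mean of 3 tissues, Cxcl11 was higher in C5 than in B6 by 2.38 ± 0.28 (log2, adjusted p = 4.8e-07), with pooled counts of 200 and 28 and a ratio of 9.67 (6.49 to 14.9). In C5F1 it was higher than in B6 by 1.46 ± 0.27 (adjusted p = 0.0011, ratio 4.74, 3.10 to 7.45), and in B6xPWD by 1.36 ± 0.28 (adjusted p = 0.00030, ratio 4.29, 2.74 to 6.89). The 3 comparisons share their B6 libraries. None of these 3 calls was lost when any 1 library was left out. Ppbp had no read in wild-type mucosa of B6, nor in mucosa of either genotype of C5 and B6xPWD. Groups without a read on both sides left its mean over tissues without a bounded error in C5 and B6xPWD, so that the test says nothing of it there. In C5, 3 of 9 tested members were called against 18.6% of all genes, in C5F1 2 of 9 against 11.5%, and in B6xPWD 5 of 9 against 34.8%. Of the tested genes on chromosome 5 alone, 33.0% were called in C5, 17.5% in C5F1 and 36.9% in B6xPWD. The count in C5 is thus that of chromosome 5 genes at large.

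By tissue, adenomas of C5 had 4.31, 3.47 and 3.16 CPM of Cxcl11, against 0.170, 0.190 and 0.213 CPM in adenomas of B6 (log2 change 3.02 ± 0.47, adjusted p = 5.2e-05, ratio 21.2, 9.79 to 54.6). Min mucosa of C5 had 7.41, 3.42 and 2.52 CPM, against 0.502, 0 and 0.524 CPM in B6 (2.85 ± 0.49, adjusted p = 0.0013), a call that was lost in a fit of these 2 groups alone (2.88, adjusted p = 0.095). In both tissues every C5 library lay above every B6 library. In wild-type mucosa C5 had 2.07, 1.45 and 4.26 CPM, against 0.301, 1.76 and 0.567 CPM in B6, and these groups overlapped (1.27 ± 0.51, adjusted p = 0.21). Cxcl11 was the 1 member called in Min mucosa, where 1.1% of all genes and 6.69% of those on chromosome 5 were called. In adenoma 2 members were called, against 17.8% of all genes and 24.9% of those on chromosome 5. In wild-type mucosa none was called, against 1.47% and 8.30%, with 3 members at an unadjusted p under 0.05 by edgeR and none called by DESeq2.

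**Figure D3:**
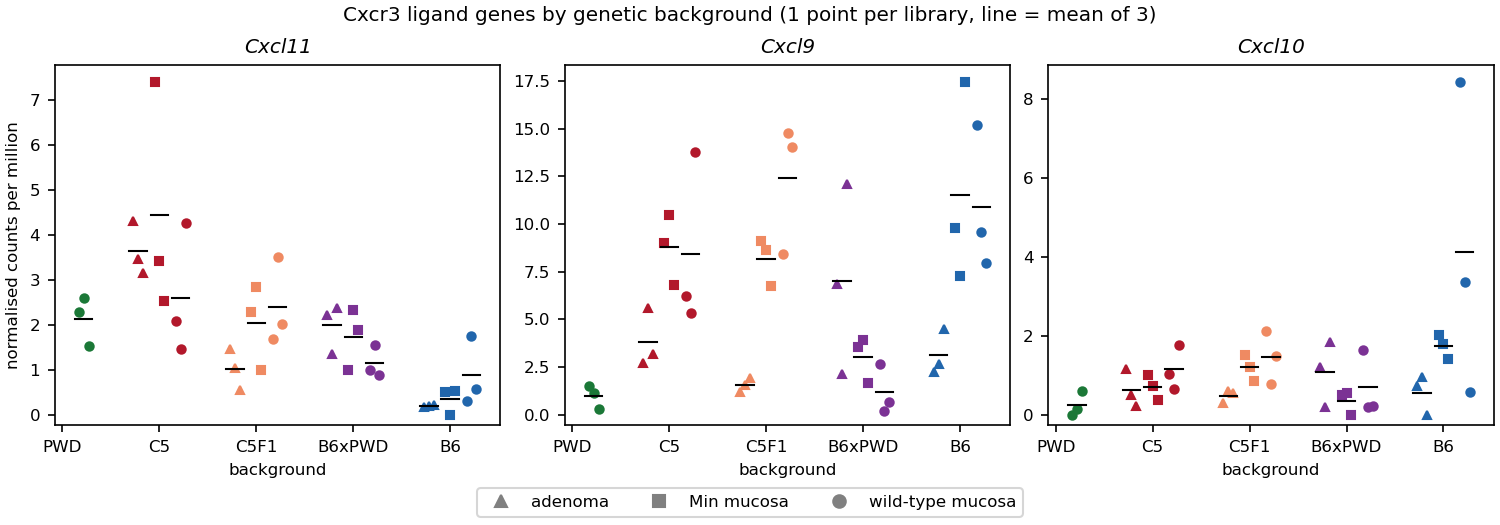
Levels (CPM) of the ligands of Cxcr3, Cxcl11, Cxcl9 and Cxcl10, by background (PWD, C5, C5F1, B6xPWD, B6); each point is 1 tissue library, as triangles for adenoma, squares for Min mucosa and circles for wild-type mucosa. Cxcl11 is lowest in B6, at 0 to 1.76 CPM, while Cxcl9 in PWD stays at or below 1.52 CPM.

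The other interferon-induced ligands did not follow Cxcl11 in C5. Cxcl9 changed by -0.13 and Cxcl10 by -0.89 (adjusted p = 0.082) as the mean of 3 tissues, the second called lower without B6 wild-type mucosa replicate 3 (-1.01, adjusted p = 0.035) or C5 adenoma replicate 1 (-1.07, adjusted p = 0.049), and none of 11 tested interferon gamma genes and none of 9 tested T and natural killer cell markers was called between C5 and B6. Art3, on the opposite strand, changed by 0.66 ± 0.28 (adjusted p = 0.093). Reads were aligned to a C57BL/6 reference, and the effect of mismatches between PWD alleles and that reference was not tested. Of 867 tested genes on chromosome 5, 286 (33.0%) were called between C5 and B6, 149 higher and 137 lower, and of genes on other chromosomes 17.6% were called.

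Among the ELR ligands, Cxcl1 was lower in adenomas of C5 than in adenomas of B6, at 0.816, 0.165 and 2.11 CPM against 3.39, 5.51 and 5.76 CPM, without overlap. The log2 change was -1.99 ± 0.53 (adjusted p = 0.010), and the pooled level was lower by 4.26-fold (2.61 to 7.38). Without C5 adenoma replicate 2 the change was -1.58 (adjusted p = 0.067). Cxcl2 had 0.700, 0.330 and 1.47 CPM in adenomas of C5, against 1.90, 3.23 and 2.56 CPM in adenomas of B6, also without overlap (-1.33, adjusted p = 0.077, and called in a fit of these groups alone, adjusted p = 0.039). As the mean of 3 tissues Cxcl2 was called lower in C5 (-1.15 ± 0.29, adjusted p = 0.0095) and in B6xPWD (-1.38 ± 0.38, adjusted p = 0.0062). In mucosa of either genotype C5 had no read of Cxcl2, and B6 had at most 8 reads in a library. Both calls of Cxcl2 rest on B6 wild-type mucosa replicate 1, which held all 3 reads of that group. Without it that group has no read, the mean of 3 tissues has no bounded error, and neither comparison was called.

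As the mean of 3 tissues, Pf4 was lower in C5, C5F1 and B6xPWD than in B6. Its lowest, median and highest levels over 3 tissues were 0.440, 0.756 and 1.47 CPM in C5, 0, 0.9503 and 2.11 CPM in C5F1, 0, 0.534 and 1.20 CPM in B6xPWD and 1.05, 1.70 and 3.64 CPM in B6. The log2 change against B6 was -0.93 ± 0.30 in C5 (adjusted p = 0.030), -0.94 ± 0.30 in C5F1 (adjusted p = 0.038) and -1.37 ± 0.32 in B6xPWD (adjusted p = 0.0012). Within single tissues C5 did not pass (adjusted p = 0.27 in adenoma, 0.41 in Min mucosa and 0.32 in wild-type mucosa), nor did wild-type mucosa of PWD against B6 (-1.28, adjusted p = 0.12). With the replicate number as a block the C5F1 value was -0.87 (adjusted p = 0.062). Leaving out single libraries ended the call in C5 for 7 of 18 libraries and in C5F1 for 11 of 18, with adjusted p up to 0.0809 and 0.107 (both without B6 Min mucosa replicate 1).

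Platelet markers moved with Pf4. Among all 13657 tested genes, 1141 were called lower in C5 and 2198 in B6xPWD. Gp1bb, Itga2b and Itgb3, the 3 tested of 10 markers, all fell in C5 (-0.77, -1.04 and -0.62), and all 3 fell in B6xPWD. Their list of 10 summed to 32.6 to 49.6 CPM in C5, 20.5 to 49.6 CPM in C5F1, 14.4 to 34.9 CPM in B6xPWD and 30.6 to 106 CPM in B6, with Treml1 at 0 in C5, C5F1 and B6xPWD. The part of platelets in the level of Pf4 was not tested.

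B6xPWD was lower than B6 in Cxcl9 and Cxcl10 too. For Cxcl13 the call depends on the B6xPWD adenoma that stood apart, with a mean log2 change of -0.18 (adjusted p = 0.77) with it and -1.57 ± 0.33 (adjusted p = 0.00039) without it. Cxcl1 (-1.02, adjusted p = 0.056) and Cxcl5 (-1.02, adjusted p = 0.072) were called by DESeq2 and not by edgeR. In adenoma Cxcl9 had 6.85, 2.12 and 12.1 CPM in B6xPWD, against 2.24, 2.66 and 4.48 CPM in B6. In Min mucosa it had 3.56, 3.92 and 1.64 CPM in B6xPWD, against 9.80, 7.25 and 17.5 CPM in B6. In wild-type mucosa it had 2.64, 0.193 and 0.659 CPM in B6xPWD, against 15.2, 9.59 and 7.93 CPM in B6. In both kinds of mucosa every B6xPWD library lay below every B6 library, and in adenoma the groups overlapped. The mean log2 change was -1.26 ± 0.29 (adjusted p = 0.0011) and without B6 wild-type mucosa replicate 1 it was -1.18 (adjusted p = 0.0033). Cxcl10 was lower by -1.16 ± 0.37 (adjusted p = 0.015), a call lost without B6 wild-type mucosa replicate 1 (-0.89, adjusted p = 0.0544) or B6 adenoma replicate 1 (-1.09, adjusted p = 0.053). In the model that adds background and tissue, chosen after the data were seen, neither passed (Cxcl9 -1.17, adjusted p = 0.11; Cxcl10 -1.17, adjusted p = 0.098). The median change of the tested members in B6xPWD was -1.02, beside -0.01 over all genes. Of 11 tested interferon gamma genes 6 fell, of 5 neutrophil markers 4, of 8 fibroblast markers 6, of 5 endothelial markers 4 and of 9 T and natural killer cell markers 3. Among all 13657 tested genes, 2198 were called lower. The part of these genes and cell types in the levels of these chemokines was not tested.

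In wild-type mucosa of PWD, Cxcl9 and Cxcl10 were low. Cxcl9 had 1.52, 1.15 and 0.304 CPM in PWD, against 15.2, 9.59 and 7.93 CPM in B6, with a log2 change of -3.10 ± 0.55 (adjusted p = 0.00011) and a pooled level lower by 11.3-fold (6.66 to 20.6). Cxcl10 had 0, 0.144 and 0.607 CPM in PWD, against 8.44, 3.36 and 0.567 CPM in B6 (-3.22 ± 0.67, adjusted p = 0.00080). The Cxcl9 groups did not overlap and those of Cxcl10 overlapped in 1 library of each. Both calls held whichever library was left out, with adjusted p up to 0.0019 and 0.021. Without B6 wild-type mucosa replicate 1, which held 56 of the 78 reads of Cxcl10 in that group, the change of Cxcl10 was -2.37 (adjusted p = 0.021).

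Ppbp was the third member called in PWD, where 18.7% of all genes and 20.2% of those on chromosome 5 were called. It had 0.507, 1.15 and 0 CPM in PWD and no read in wild-type mucosa of B6 (log2 change 1.63 ± 0.51, adjusted p = 0.028), 3.45-fold higher with the empty group set to 3 counts. Of its 10 reads 8 came from replicate 2, and without it the change was 0.91 (adjusted p = 0.215). The call was also lost without B6 replicate 1 (1.64, adjusted p = 0.107) or 2, and by DESeq2 (3.80, adjusted p = 0.0634). No read of Cxcl1, Cxcl2 or Cxcl3 was found in PWD. Cxcl11 had 2.28, 2.59 and 1.52 CPM in PWD, against 0.301, 1.76 and 0.567 CPM in B6, which did not pass (0.998, adjusted p = 0.18) but did without B6 replicate 2 (1.89, adjusted p = 0.041). Cxcl13 had 9.38, 5.33 and 6.98 CPM in PWD and lay within the range of B6.

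PWD and C5 both carry chromosome 5 of PWD and differ in the other chromosomes. Between them 2 members were called, against 16.1% of all genes and 10.5% of those on chromosome 5. Cxcl9 had 1.52, 1.15 and 0.304 CPM in PWD, against 6.22, 5.31 and 13.8 CPM in wild-type mucosa of C5 (-2.74 ± 0.55, adjusted p = 0.00064, lower by 8.78-fold, 5.14 to 16.1), without overlap. Ppbp was called higher in PWD (1.63 ± 0.50, adjusted p = 0.030), a call lost without PWD replicate 2 (adjusted p = 0.248) or C5 replicate 2 or 3, and by DESeq2 (adjusted p = 0.0646). Cxcl11 did not differ by more than its error (-0.27 ± 0.48, adjusted p = 0.77). Among 11 tested interferon gamma genes, 6 were lower in PWD than in B6 and 1 was lower in PWD than in C5. Of all 13657 tested genes, 1200 and 1045 were called lower in these comparisons. T and natural killer cell markers summed to 21.3 to 159 CPM in PWD, 32.3 to 93.3 CPM in C5 and 103 to 156 CPM in B6, with all 9 present in each. Their part in the level of Cxcl9 was not tested.

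The Min allele outside adenomas was tested as Min mucosa against wild-type mucosa over 4 backgrounds. No member was called, against 0.00732% of all genes. By edgeR no member had an unadjusted p under 0.05, and DESeq2 called none. Cxcl2 and Ppbp had groups without a read, which left their means over backgrounds without a bounded error. Cxcl9 had 1.64, 7.94 and 17.5 CPM as lowest, median and highest level in Min mucosa and 0.193, 8.19 and 15.2 CPM in wild-type mucosa. Cxcl10 had 0, 0.931 and 2.01 CPM in Min mucosa and 0.193, 1.26 and 8.44 CPM in wild-type mucosa (log2 change -0.62, adjusted p = 0.71).

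**Figure D4:**
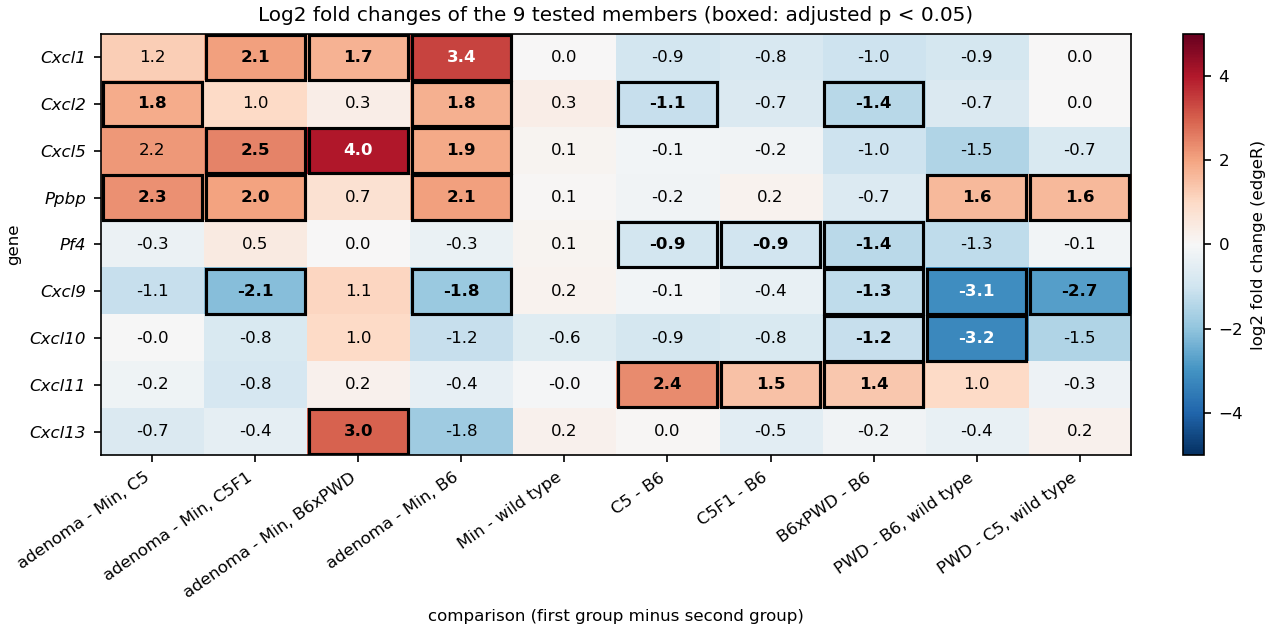
Fitted log2 changes of the 9 tested members (down the page) in the tissue comparisons (across): adenoma minus Min mucosa in each background, Min mucosa minus wild-type mucosa, each background minus B6, and PWD minus B6 and minus C5 in wild-type mucosa; boxes mark an adjusted p under 0.05. Cxcl11 is boxed in all 3 background comparisons over tissues and in no comparison of adenoma with Min mucosa.

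Organoids hold epithelium without most of the other cells of tissue: fibroblast markers summed to 10.5 to 40.5 CPM in organoids and to 185 to 861 CPM in tissue. In control organoids the members were close to silent, and Cxcl10 and Cxcl11 rose with AZA. Cxcl10 had 6.79 and 1.14 CPM in C5 organoids with AZA and no read in C5 controls. In B6 it had 13.3 and 17.1 CPM with AZA, against 0.288 and 0 CPM in B6 controls. Every AZA library lay above every control. As the mean of both backgrounds the log2 change was 4.45 ± 0.67 (adjusted p = 0.00020), with 229 reads against 2 and a ratio of 143 (39.1 to 1187). Both tested members were called higher, beside 28.5% of all genes called and 15% called higher. Both had enough reads for the test only through the AZA libraries, with 2 reads of Cxcl10 and 6 of Cxcl11 in the controls. Their number called is therefore not a result about the members.

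Cxcl11 had 4.34 and 8.66 CPM in C5 organoids with AZA, against 1.01 and 0 CPM in C5 controls. In B6 it had 0.683 and 6.20 CPM with AZA and no read in B6 controls. The AZA library with the lowest level lay below the highest control. The mean log2 change was 3.35 ± 0.90 (adjusted p = 0.013), with 108 reads against 6 and a ratio of 22.5 (9.99 to 62.6). Without B6 AZA replicate 2, which held 36 of those reads, the change was 2.40 (adjusted p = 0.057).

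Within a background, Cxcl10 was called in C5 (3.81 ± 0.85, adjusted p = 0.0083, beside 14.6% of all genes) and in B6 (5.09 ± 1.02, adjusted p = 0.0037, beside 16.1%). In C5 it was 22.7-fold higher with AZA when the empty control group was set to 3 counts. Cxcl11 was short of the threshold in C5 (3.10, adjusted p = 0.19) and in B6 (3.60, adjusted p = 0.054). It passed in C5 without control replicate 3 (4.46, adjusted p = 0.046), and in B6 without AZA replicate 1 (4.42, adjusted p = 0.017), without the filter on low counts (adjusted p = 0.0068) and by DESeq2 (adjusted p = 0.0050). Neither member passed the test of the AZA effect in C5 minus that in B6, with 0% of all genes called, no member at an unadjusted p under 0.05 by edgeR and none called by DESeq2. Nor was either called between C5 and B6 control organoids, where 0.209% of all genes and 2.21% of those on chromosome 5 were called. Cxcl11 there had a log2 change of 1.36 (adjusted p = 0.89) on 6 reads in all.

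**Figure D5:**
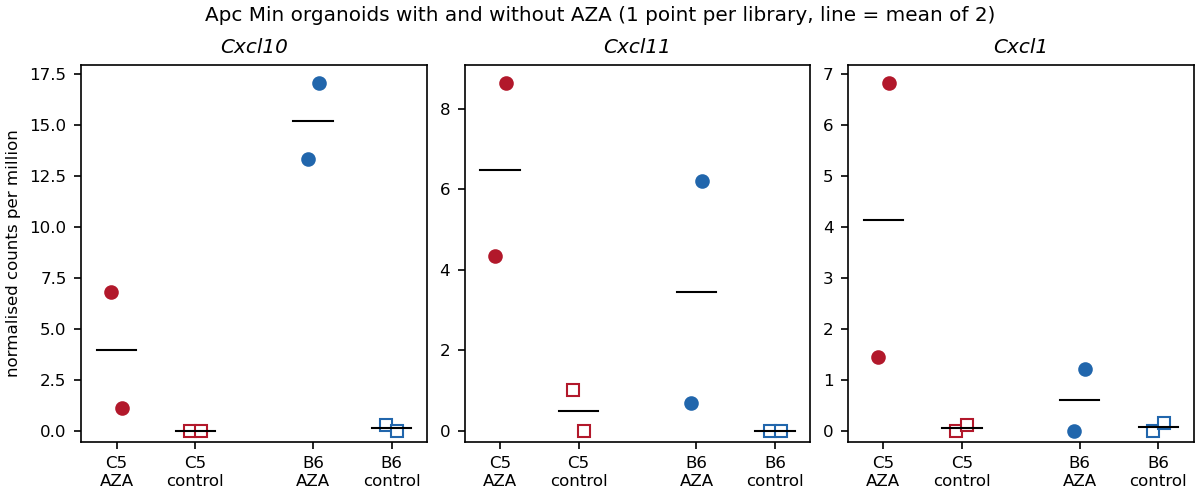
Levels (CPM) of Cxcl10, Cxcl11 and Cxcl1 in C5 and B6 organoids; each point is 1 library, filled for AZA and open for control. Cxcl10 is at 1.14 to 17.1 CPM with AZA and at or below 0.288 CPM in controls.

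The remaining members had too few reads in organoids for the test. Cxcl1 had 1.45 and 6.83 CPM in C5 and 0 and 1.21 CPM in B6 with AZA, 47 reads in all, against 2 reads in the controls, a ratio of 29.3 (7.68 to 249). Without the filter on low counts it was not called (2.41, adjusted p = 0.11). Cxcl2 had 15 reads with AZA and none in controls, 6.24-fold higher with the controls set to 3 counts. Of these reads 10 came from B6 AZA replicate 1, without which that value was 2.79-fold. Without the filter it was not called either (1.63, adjusted p = 0.24). Pf4 had 19 reads with AZA, 16 of them in C5 replicate 4, and none in controls. Cxcl9 had 23 reads with AZA and 5 in controls, and Cxcl5 had 22 and 13. Cxcl13 had 4 reads, all in 1 AZA library of C5, and Cxcl3 had none.

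Genes known to act with Cxcl10 moved in the same organoids. Of 7 tested interferon gamma genes 5 rose with AZA, among them Gbp3 by 4.04, Ciita by 2.81, Nlrc5 by 2.71 and Irf1 by 1.55. Of 7 tested inducers of ELR chemokines 5 rose, with Tnf at 5.67 ± 3.37 CPM with AZA and 0.0363 ± 0.0726 CPM in controls (SD, n = 4 each; log2 change 4.00 ± 0.74, adjusted p = 0.0010). Cxcl16, a transmembrane chemokine of another chromosome, rose by 1.96 and Ccl20, an epithelial attractant of lymphocytes, by 3.51. Of 9 tested neighbours of the members 3 rose and 1 fell, with Ereg at 30.5 ± 9.61 CPM with AZA and 1.91 ± 2.32 CPM in controls (3.87 ± 0.59).

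Markers of T and natural killer cells, a source of interferon gamma, were near 0 in organoids: 9 markers summed to 0.172 to 2.73 CPM with AZA and to 0.581 to 2.19 CPM in controls, with Nkg7 and Gzmb at 0 in AZA libraries and Cd4, Cd8a, Cd2 and Gzmb at 0 in controls. Macrophage markers were higher with AZA, at 34.1 to 49.9 CPM against 7.88 to 18.5 CPM over 9 markers, with C1qb at 0 in AZA libraries, and 2 of 5 tested rose, Csf1r and Mrc1. Their part in the levels of Cxcl10 was not tested.

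Across the 39 tissue libraries the members paired by receptor only in part. As a description, over libraries that share groups and composition, the log2 levels of Cxcl1 and Cxcl2 had a Pearson correlation of 0.83, those of Cxcl1 and Cxcl5 of 0.73, those of Cxcl2 and Ppbp of 0.70 and those of Cxcl9 and Cxcl10 of 0.65. Cxcl11 stood apart from the other ligands of Cxcr3, at 0.10 with Cxcl9 and -0.11 with Cxcl10. Among the genes most like a member over the same libraries were Gm11978 (0.94) for Cxcl1, 1700001O22Rik (0.85) and Ereg (0.84) for Cxcl2, Tnf (0.87) for Cxcl5, Gad2 (0.87) for Ppbp, Dapk1 (0.74) for Pf4, Cd274 (0.80) and Nlrc5 (0.80) for Cxcl9, Igtp (0.67) for Cxcl10, 1700023E05Rik (0.81) for Cxcl11 and S1pr3 (0.84) for Cxcl13.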

How the data were processed

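Per the labels, total RNA was depleted of ribosomal RNA with RiboMinus and read from 1 end on a Genome Analyzer IIx. The authors deposited 1 table of raw read counts per gene symbol for all 47 libraries; BWA, HTSeq and mm10 are named in the submitters' processing notes, and versions, annotation and strand setting are not given in the sources used here. HTSeq's summary categories name no gene and were left out of library sizes and tests. They held 40.7 to 53.9% of the reads in tissue and 46.4 to 63.5% in organoids. Rn45s was kept.

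Tissue and organoid libraries were fitted apart in edgeR 4.0.16 (R 4.3.3): filterByExpr by group (minimum count 10, minimum total 15), TMM, 1 mean per group over all groups, quasi-likelihood F-test, and Benjamini-Hochberg adjustment over 13657 genes in tissue and 13395 in organoids. There were 22 comparisons. Pooled count ratios carry exact 95% intervals. Where a group had no reads it was set to 3 counts, and such a fold carries no interval and leaves out the counting error of the other group. All reads were summed per gene without regard to alleles. DESeq2 1.42.0 served as an alternative. The fit was tested on simulated data: of 100 genes changed 4-fold, 100 were called as the mean adenoma effect and 70 as the mean AZA effect, and of 100 changed 2-fold, 88 and 35. Of the unchanged genes 4 and 10 were called. The changed genes were drawn from all tested genes, so these shares do not carry over to members with few reads.

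Members were chosen by symbol, and every member is described. The members, the 15 gene lists and the tests were chosen with earlier results of these data known. From each list the genes with the largest changes and those bearing on a member are named. A few genes of the lists are not reported here. Same-numbered libraries of adenoma and Min mucosa deviated together: deviations from the group means correlated by 0.107 to 0.455 in 12 of 12 pairs. Whether a shared number stands for a shared mouse or a shared batch is not given and was not tested. No 2 libraries were copies of each other over 43 pairs within groups.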

Additional observations from a re-analysis of the deposited data

Results flagged for a closer look

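The effect of adenoma on Cxcl13 differed between B6xPWD and B6 by 4.73 ± 1.14 (log2, adjusted p = 0.0433, interaction term of edgeR's quasi-likelihood test), B6xPWD minus B6. It was 0.53 (adjusted p = 0.957) without B6xPWD adenoma replicate 1, whose B cell markers summed to 440 CPM.

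The effect of adenoma on Cxcl9 also differed between B6xPWD and B6, by 2.91 ± 0.66 (adjusted p = 0.0344), and was 2.90 (adjusted p = 0.0864) without the same library. In B6xPWD the levels of adenoma and Min mucosa overlapped, while in B6 every adenoma held less Cxcl9 than any Min mucosa library.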

How the results depend on the processing

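Of 43 calls of a member, 21 were kept under every alternative that tested them: other size factors, Rn45s left out, no filter on low counts, DESeq2, a fit of the compared groups alone, the replicate number as a block, an additive model and leaving out each library. The other 22 were lost under at least 1 of them, and 1 value changed sign: Cxcl13 in adenoma minus Min mucosa of B6xPWD was -1.25 without B6xPWD adenoma replicate 1 and up to 3.52 without another library. The additive model of background and tissue, and the block within each background, were chosen after seeing the data. The additive model also called Cxcl1 lower than in B6 in C5 (-1.26, adjusted p = 0.035), C5F1 (-1.23, adjusted p = 0.0098) and B6xPWD (-1.33, adjusted p = 0.0058). Beyond what the settings themselves show (fewer samples or genes), the cause was not tested.

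In a fit of the compared groups alone fewer members had enough reads to be tested. The number called was 2 instead of 4 in adenoma minus Min mucosa of C5F1 (2 of the 4 not tested), 1 instead of 2 in C5 (both not tested, Cxcl5 gained), 0 instead of 3 in B6xPWD (2 not tested, Cxcl13 lost), 1 instead of 3 between PWD and B6 (2 not tested), 1 instead of 2 between PWD and C5 (1 not tested) and 0 instead of 1 for AZA in C5 (not tested). Tested and lost were also Cxcl11 between C5 and B6 in Min mucosa, 0 instead of 1, and both members of the difference of the adenoma effect between B6xPWD and B6, 0 instead of 2. In the fits with 0 calls edgeR put 0 of 3 tested members at an unadjusted p under 0.05 in B6xPWD, 1 of 1 for AZA in C5, 1 of 4 in Min mucosa and 2 of 7 in the interaction. With DESeq2 it was 3 instead of 5 in adenoma minus Min mucosa of B6, 2 instead of 3 between PWD and B6, 1 instead of 2 between PWD and C5, 7 instead of 5 between B6xPWD and B6, and 2 instead of 1 for AZA in B6. Without the filter it was 1 instead of 2 for C5F1 minus B6 and 2 instead of 1 for AZA in B6.

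With the replicate number as a block, 1 of 2 calls was kept in C5F1 minus B6 (Pf4 lost) and 1 of 2 in the interaction of B6xPWD (Cxcl13 lost), and no other call changed. With the block within each background, 1 instead of 3 members was called in adenoma minus Min mucosa of B6xPWD: Cxcl1 (1.73, adjusted p = 0.0611) and Cxcl13 (2.07, adjusted p = 0.0522) were lost. The same block added Cxcl5 in C5 (2.21, adjusted p = 0.0038). In organoids, same-numbered libraries did not deviate together (correlations of -0.0117 in C5 and -0.00029 in B6). With 2 libraries per group, both pairs of a strain must give the same value. The block moved no count in organoids, and none could be fitted between C5 and B6 controls, which share no number.

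Leaving out 1 library at a time, the number of called members ranged from 5 to 6 in adenoma minus Min mucosa as the mean of 4 backgrounds, 3 to 4 in B6, 1 to 4 in C5F1, 1 to 2 in C5 and 1 to 3 in B6xPWD. It ranged from 2 to 4 in C5 minus B6 as the mean of 3 tissues, 0 to 1 in wild-type mucosa, 1 to 2 in Min mucosa and 1 to 2 in adenoma, from 1 to 2 in C5F1 minus B6, 3 to 7 in B6xPWD minus B6, 2 to 3 in PWD minus B6 and 1 to 2 in PWD minus C5. It ranged from 0 to 2 in the interaction of B6xPWD, and from 1 to 2 for AZA as a mean, in B6 and in C5. It stayed at 0 elsewhere. At these counts a member with no read in a group cannot be told apart from one expressed at a few reads.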
